A study of Sus scrofa with 10 samples.

Results

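Cytochrome P450 enzymes are haem-containing monooxygenases that insert oxygen into drugs, fatty acids, sterols, steroid hormones and vitamins. Most sit in the endoplasmic reticulum and take electrons from P450 reductase (POR), while a smaller set in mitochondria takes them from adrenodoxin (FDX1). The liver is the main site of drug oxidation and bile acid synthesis, the kidney activates and inactivates vitamin D, and the gonads and adrenal glands build steroid hormones. The genes described here are those whose identifier maps to a pig symbol made of CYP, a number, a letter and a number. This rule found 31 genes among the 25880 in the deposited table, of which 29 were named by an identifier table and 2 (CYP2C42 and CYP8B1) by their overlap with a RefSeq gene of the assembly Sscrofa11.1. They lie on 12 chromosomes and were ordered by the role known for each symbol. By this order, 10 act mainly on foreign compounds, 5 mainly on fatty acids or related or unsettled substrates, and 7 on sterols and bile acids. Another 3 act on steroid hormones, 3 on vitamin D and 3 on retinoic acid.

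The pigs were Northeast Min animals aged 60 days, with no treatment or genotype named. Ovary, liver, kidney, lung, spleen, heart, subcutaneous adipose tissue and the skeletal muscles psoas major and longissimus dorsi gave 1 RNA-seq library each. A further library came from a pool labelled as a mixture of the same organs with muscle but without adipose tissue. The number of animals is not given in the sources used here. Because no tissue was sequenced more than once, the values carry no error and differences were not tested. Fewer cells of a type and less RNA per cell cannot be told apart in such tissue libraries.

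Values are in FPKM, fragment numbers scaled by gene length and library size, so that levels can be compared between genes. The sum of a library ran from 292495 to 369254 FPKM. The spacing of low values in short genes put the depth between 10100000 and 17900000 fragments, uncertain by a factor of 2. The tissue labels were checked on defining markers. All 12 hepatocyte markers were highest in liver. All 7 kidney tubule markers (UMOD of the thick limb, the others of the proximal tubule) were highest in kidney. The same held for all 5 alveolar type 2 markers in lung, all 5 adipocyte markers in adipose tissue and all 4 oocyte markers in ovary. It also held for all 3 B cell markers in spleen, all 3 cardiomyocyte markers in heart and all 3 fibre markers in skeletal muscle.

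Liver held by far the most P450 transcripts. The 31 genes summed to 2570.0 FPKM there, or 0.760% of the library. The sums were 291 in adipose tissue, 264 in kidney, 177 in lung, 98.2 in ovary, 60.7 in spleen, 33.7 in heart, 22.7 in longissimus dorsi and 20.8 in psoas major. The liver sum was thus 8.83 times that of adipose tissue and 124 times that of psoas major. This order covers named genes only. With 9 unnamed gene models over P450 loci, described further on, kidney came second at 1105 against 412 in adipose tissue. Liver, at 5212, was then 4.72 times kidney. All these ratios are on the deposited scale. Median-of-ratios scaling divides liver by 0.558, adipose tissue by 1.09, kidney by 1.21 and psoas major by 0.686, and was not applied to the sums. In liver, CYP2E1 and CYP2D6 together made up 75.3% of the sum. The genes grouped under foreign compounds made up 89.5%, with CYP2D6 placed there by its symbol only. The leading gene changed between tissues: CYP2D6 led in kidney with 53.6% of the sum, CYP4B1 in lung with 30.6% and CYP1B1 in spleen with 35.5%. CYP27A1, a mitochondrial sterol hydroxylase, led in heart, both muscles, adipose tissue and ovary, with 32.8% to 48.7% of the sum.

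**Figure D1:**
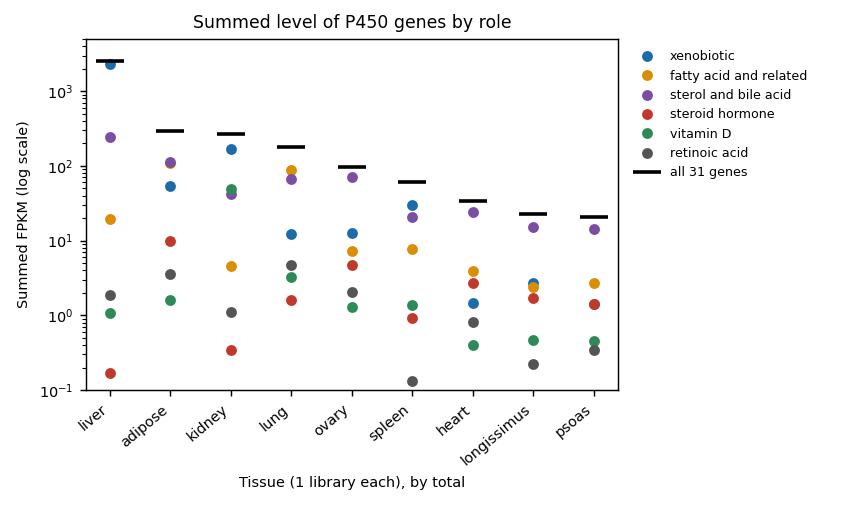
Summed FPKM (log scale) of the P450 genes in each of 9 tissues, with tissues ordered by the sum over all 31 genes (black bars) and 1 coloured point per role. Liver stands at 2570.0 FPKM and the next tissue, adipose tissue, at 291, and vitamin D genes reach 49.5 in kidney. In psoas major the point for foreign compounds is hidden by that for steroid hormones.

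At 1 FPKM or more, 23 of the 31 genes were detected in at least 1 tissue, which is 74.2% against 60.4% of all genes. The detected P450 genes were less widely spread than the detected genes as a whole. They were found in a median of 4 tissues against 8, and 3 of 23 (13.0%) were found in every tissue against 49.0% of all genes. Those 3 were CYP2U1, CYP39A1 and CYP51A1. Another 4 (17.4%, against 10.9% of all detected genes) were detected in exactly 1 tissue, namely CYP2C42, CYP4F3 and CYP26A1 in liver and CYP24A1 in kidney. Liver had 16 of the 23 at 1 FPKM or more (against 62.7% of all detected genes), adipose tissue 15 (73.0%), lung 14 (81.8%), kidney 13 (76.1%) and ovary 12 (84.2%). Spleen had 11 (76.7%), heart 7 (68.9%), and psoas major and longissimus dorsi 5 each (65.5% and 61.3%). Both muscles had the same 5, namely CYP27A1, CYP39A1, CYP51A1, CYP21A2 and CYP2U1, and heart had CYP4V2 and CYP7B1 besides. The other 8 members stayed under 1 FPKM in each tissue: CYP2F1, CYP2W1, CYP4F22, CYP8B1, CYP46A1, CYP11A1, CYP17A1 and CYP26C1, with highest values between 0.0342 (CYP26C1 in ovary) and 0.924 (CYP17A1 in ovary).

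To place each gene, the pair of skeletal muscles was averaged, which gave 8 tissue classes. Of the 23 detected members, 12 (52.2%) were highest in liver, against 5.68% of all genes detected in a class. Kidney had 3 (against 13.0% of all genes), adipose tissue 4 (6.73%), lung 2 (15.1%), spleen 2 (19.2%), and ovary none (29.0%). None was highest in heart or in skeletal muscle (7.05% and 4.29% of all genes). A gene was called enriched when its FPKM + 1 was at least 5 times that of every other class. By this rule 9 of 23 members were enriched, against 6.5% of all genes: 6 in liver (1.51% of all genes), CYP24A1 and CYP27B1 in kidney (1.04%) and CYP7A1 in lung (0.736%). No member was enriched in heart, spleen, skeletal muscle, adipose tissue or ovary (0.346%, 0.429%, 0.621%, 0.346% and 1.47% of all genes). The enriched liver genes were CYP1A1, CYP1A2, CYP2A19, CYP2C42, CYP2D6 and CYP2E1. The call for CYP7A1 ended under median-of-ratios scaling of the libraries and with 5 in place of 1 added to the FPKM, and the latter also ended the calls for CYP27B1 and CYP2C42. At the edges of the rule, CYP7A1 stood at 5.17 times and CYP2A19 at 5.68 times the next class, while CYP1B1 missed it at 3.74 and CYP4F3 at 3.57.

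**Figure D2:**
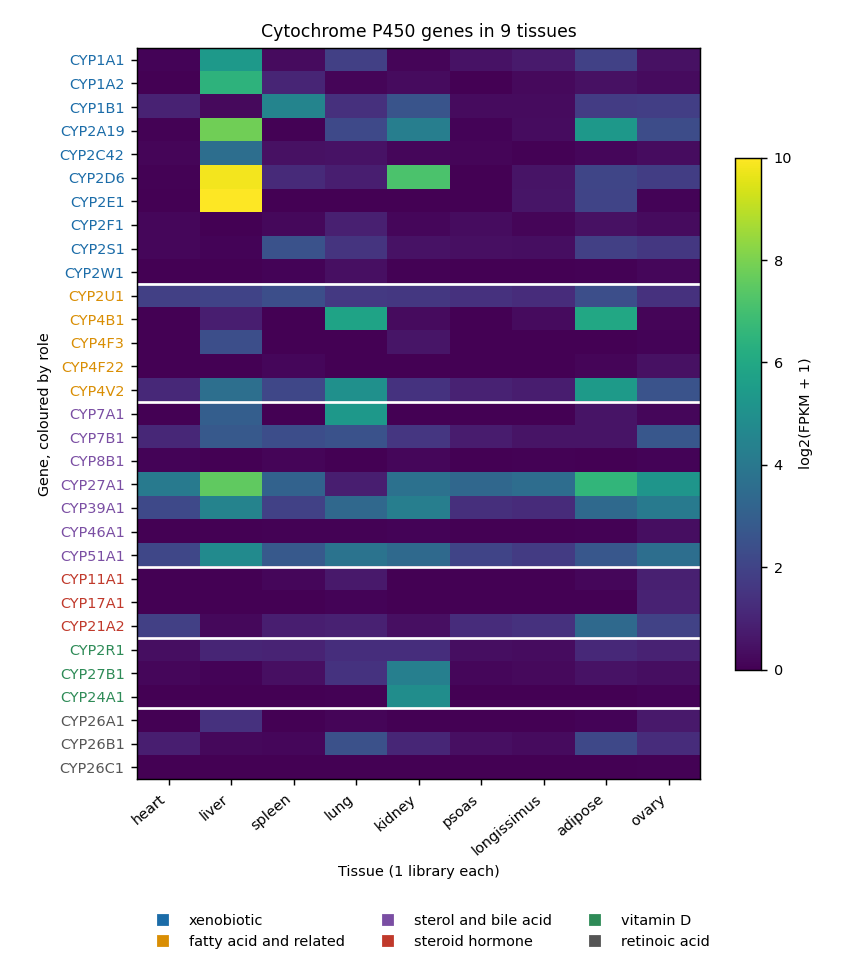
Level of each of the 31 P450 genes (rows, coloured and grouped by role) in 9 tissues (columns, 1 library each), as log2(FPKM + 1). The brightest cells are CYP2E1 and CYP2D6 in liver (1021 and 913 FPKM), CYP24A1 stands out in kidney (29.2) and CYP7A1 is brighter in lung (39.6) than in liver (6.85).

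Among the genes that act on foreign compounds, CYP2E1, which oxidises ethanol and other small molecules, was the most abundant member. It stood at 1021 FPKM in liver, 3.13 in adipose tissue, 0.490 in longissimus dorsi, 0.0562 in ovary and 0.00433 in kidney, and was listed at 0 in heart, spleen, lung and psoas major. It ranked 37 among all genes of the liver library. The gene model named CYP2D6, whose role was assigned by that symbol, matches CYP2D25 in RefSeq. Whether the same role holds for pig CYP2D25 was not tested. CYP2D6 was nearly as high as CYP2E1 in liver but was shared with kidney. Its values were 913 in liver, 142 in kidney, 3.27 in adipose tissue, 2.54 in ovary, 1.27 in spleen, 0.766 in lung, 0.453 in longissimus dorsi and 0.0534 in heart, and it was listed at 0 in psoas major. The kidney level was 15.5% of the liver level.

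CYP2A19, a pig member of the nicotine- and coumarin-oxidising subfamily, reached 225 in liver, 38.9 in adipose tissue and 18.5 in kidney, followed by 3.95 in ovary and 3.57 in lung. It was at most 0.250 in the other tissues. The aryl hydrocarbon-inducible pair CYP1A1 and CYP1A2 lies 16.8 kb apart on chromosome 7, on opposite strands, and both were highest in liver. CYP1A2 stood at 87.7 in liver and 1.07 in spleen, and was at 0.363 or less elsewhere. CYP1A1 stood at 41.1 in liver, 2.79 in adipose tissue and 2.75 in lung, and at 0.643 or less elsewhere. CYP2C42 was at 11.3 in liver and at most 0.386 in any other tissue.

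CYP1B1, which metabolises oestrogens and polycyclic hydrocarbons, and CYP2S1 had a different distribution. CYP1B1 was at 21.6 FPKM in spleen, 5.04 in kidney, 2.66 in ovary, 2.39 in adipose tissue, 1.62 in lung, 0.956 in heart, 0.211 in longissimus dorsi, 0.209 in psoas major and 0.197 in liver. Liver, the tissue with the largest P450 sum, was thus among the 3 lowest for this gene, close to both skeletal muscles. CYP2S1 was likewise highest in spleen (4.79) and lowest in liver (0.0688), with 2.67 in adipose tissue, 2.08 in ovary and 1.87 in lung. CYP2F1 and CYP2W1 peaked in lung, but only at 0.834 and 0.340.

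Adjacent members within 500 kb of each other, with unnamed models between them passed over, formed 6 pairs. Of these pairs, 4 held a member under 1 FPKM in each tissue. In the other pairs, CYP1A1 and CYP1A2 were both highest in liver, while CYP2A19 was highest in liver and CYP2S1, 157 kb away, in spleen. The unnamed model over CYP2B22 lies between CYP2A19 and CYP2S1, and that over CYP4F55 between CYP4F3 and CYP4F22. CYP2F1 lies 22.8 kb from CYP2A19 on chromosome 6 and was listed at 0 in liver, where CYP2A19 was at 225. CYP26C1 lies 4.22 kb from CYP26A1 on chromosome 14 and was listed at 0 in liver, where CYP26A1 was at 1.71.

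The 5 named genes of the fatty acid group summed to 110.2 FPKM in adipose tissue and 87.9 in lung, against 19.6 in liver. With the unnamed models over CYP4A and CYP4F loci added, liver (241) and kidney (170.0) stood above adipose tissue (124) and lung (90.2). Whether all genes under those models act on fatty acids was not tested. CYP4B1, an enzyme known from lung that oxidises fatty acids and some pro-toxins, stood at 62.9 FPKM in adipose tissue and 54.2 in lung, but at 0.799 in liver and at most 0.236 elsewhere. CYP4V2, an omega-hydroxylase of fatty acids, followed the same order with 42.9 in adipose tissue, 31.4 in lung, 11.6 in liver and 4.95 in ovary. It was at 3.34 in spleen, 1.75 in kidney, 1.2 in heart, 0.944 in psoas major and 0.757 in longissimus dorsi. CYP4F3, whose gene model matches CYP4F2 in RefSeq, was at 4.29 in liver and 0.480 in kidney and was under 0.1 elsewhere. CYP2U1 ran from 1.39 in longissimus dorsi to 4.34 in adipose tissue, with 4.32 in spleen.

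In the sterol and bile acid group, CYP7A1 was higher in lung than in liver. It encodes the rate-limiting hydroxylase of bile acid synthesis, an activity known from hepatocytes. CYP7A1 stood at 39.6 FPKM in lung, 6.85 in liver, 0.434 in adipose tissue, 0.128 in ovary and 0.0221 in longissimus dorsi, and was listed at 0 in heart, spleen, kidney and psoas major. Lung was 5.78 times liver, and median-of-ratios scaling of the libraries lowered the log2 gap from 2.37 to 1.02. Hepatocyte markers were low in lung: ALB was at 0.257, 6 of 12 were listed at 0, and none exceeded 1.25% of its liver level. In the pool, which is labelled as holding both organs, CYP7A1 was at 10.2, above the liver level. That was 25.8% of the lung level, beside 22.0% to 22.1% for 4 of the 5 alveolar type 2 markers (the fifth, ABCA3, at 42.1%). Those 4 markers were at most 0.352 in liver, where CYP7A1 was at 6.85. Hepatocyte markers stood at 38.2% to 52.4% of their liver level in the pool. The 5 club and airway markers summed to 264 in the pool against 1339 in lung. The parts of lung and liver in the pool value of CYP7A1 were not tested. The CYP7A1 gene model (chromosome 4, 74342856 to 74373325) overlaps no other model in the table. In RefSeq, however, the model of CYP7A1 and that of the neighbouring gene SDCBP share 14620 bp. SDCBP, an adaptor protein gene on the opposite strand, was also highest in lung, at 183, with 112 in ovary, 95.4 in spleen, 84.7 in adipose tissue, 63.5 in kidney, 46.2 in psoas major, 36.8 in heart, 33.5 in liver and 24.0 in longissimus dorsi. Spleen and kidney thus held SDCBP but had CYP7A1 listed at 0. The part of SDCBP transcripts in the CYP7A1 value was not tested.

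The other bile acid genes were highest in liver where they were detected. CYP27A1, which starts the alternative pathway, was broad: 187 in liver, 95.6 in adipose tissue, 36.5 in ovary, 16.1 in heart, 12.4 in kidney, 11.0 in longissimus dorsi, 9.14 in psoas major, 7.91 in spleen and 0.774 in lung. Lung, where CYP7A1 was highest, was the lowest of the 9 tissues for CYP27A1. CYP7B1, an oxysterol hydroxylase, was at 5.88 in liver, 5.63 in ovary, 4.80 in lung and 4.09 in spleen, and median-of-ratios scaling widened the log2 gap of liver to the next class from 0.053 to 1.34. It was at 1.96 in kidney, 1.19 in heart, 0.712 in psoas major, 0.439 in adipose tissue and 0.429 in longissimus dorsi. CYP39A1, another oxysterol hydroxylase, was at 21.0 in liver, 18.4 in kidney, 16.6 in ovary, 9.79 in adipose tissue and 9.31 in lung, and between 1.32 and 3.67 in the other tissues.

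CYP8B1, which directs bile acid synthesis to cholic acid, was listed at 0 in liver. It was also at 0 in lung, psoas major and adipose tissue, and was at 0.115 in kidney, 0.112 in spleen, 0.0659 in heart, 0.0561 in ovary and 0.0511 in longissimus dorsi. Each of the 5 values above 0 was a whole number of steps within 1%, at most 2, where a step is the spacing of low values in short genes and shares the uncertainty of the depth. In a gene of this length a step was 0.0413 FPKM in liver. Whether such a 0 reflects the gene model or the tissue was not tested. CEBPA, a transcription factor gene known from liver and adipose tissue, was likewise listed at 0 in both. The partner genes of bile acid synthesis and transport were nonetheless abundant in liver. Of 8 listed, all 7 that were detected were highest there and 5 were enriched, with the bile salt ligase SLC27A5 at 249, the reductase AKR1D1 at 193 and the bile salt pump ABCB11 at 92.0. The conjugating enzyme gene BAAT was the undetected one, at 0 in liver and 0.0355 in kidney.

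CYP51A1, the sterol demethylase of cholesterol synthesis, was found in every tissue. It was at 26.5 in liver, 13.2 in lung, 11.3 in ovary, 9.75 in kidney, 5.95 in spleen, 5.51 in adipose tissue, 3.41 in heart, 3.09 in psoas major and 2.32 in longissimus dorsi. Of 12 other cholesterol synthesis genes, 8 were highest in liver, 2 in lung, 1 in kidney and 1 in ovary. MSMO1, the methyl sterol oxidase that acts after CYP51A1, was at 134 in liver and 27.1 in lung. CYP46A1, the cholesterol hydroxylase known from neurons, did not exceed 0.302 in any of the 9 tissues.

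The steroid hormone genes were low in these tissues. CYP11A1, which cleaves the cholesterol side chain, was at 0.840 in ovary, 0.620 in lung, 0.136 in adipose tissue and 0.123 in spleen, and was listed at 0 in the other 5. CYP17A1, needed for androgens and cortisol, was at 0.924 in ovary, 0.0577 in lung and 0.0256 in adipose tissue, and was listed at 0 in the other 6. A gene model without a symbol that spans the 3 aromatase genes CYP19A1, CYP19A2 and CYP19A3 was at 1.80 in ovary and at most 0.0279 elsewhere. Among steroid partners, HSD3B1 stood at 22.8 in liver and 19.4 in ovary, HSD17B1 at 25.3 in ovary, and the transport protein gene STAR at 4.67 in ovary. NR5A1, a regulator of steroid synthesis genes, was at 16.7 in ovary and 5.77 in spleen and was under 0.1 in the other tissues.

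CYP21A2, a steroid hydroxylase known from the adrenal cortex, was the only detected gene of the steroid group. It was at 9.74 in adipose tissue, 2.90 in ovary, 2.73 in heart, 1.71 in longissimus dorsi, 1.41 in psoas major, 0.913 in lung, 0.810 in spleen, 0.338 in kidney and 0.166 in liver. Its gene model shares 299 bp with that of TNXB, a matrix gene on the opposite strand. TNXB was at 43.6 in adipose tissue, 17.2 in heart, 13.1 in ovary, 9.94 in longissimus dorsi, 6.76 in psoas major, 5.65 in lung, 2.62 in spleen, 2.54 in kidney and 0.433 in liver. The order of tissues was nearly the same for both genes, with Spearman's rho 0.983 and Pearson's r 0.95 on the log2(FPKM + 1) scale over the 9 tissues, which share library and depth between the genes. CYP21A2 was 13.3% to 38.4% of TNXB in each tissue. Whether counting used strand is not stated in those sources, so fragments of CYP21A2 and TNXB cannot be told apart where they overlap. Of 12 adrenal markers 11 were matched, CYP21A2 among them. Their sum was 18.0 in adipose tissue, of which CYP21A2 itself gave 9.74. It ran from 2.17 in kidney to 188 in ovary, where CHGA alone was at 157. In liver the sum was 23.4, with HSD3B1 at 22.8. In adipose tissue HSD3B1 was at 4.67, STAR at 2.49 and MRAP at 0.624, while MC2R, TH and DBH were listed at 0. CHGB, PNMT, CYP17A1 and CHGA were between 0.0193 and 0.417 there. DBH was at 0 in every library and MC2R in every tissue but lung, and the part of adrenal cells in the CYP21A2 value was not tested.

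**Figure D3:**
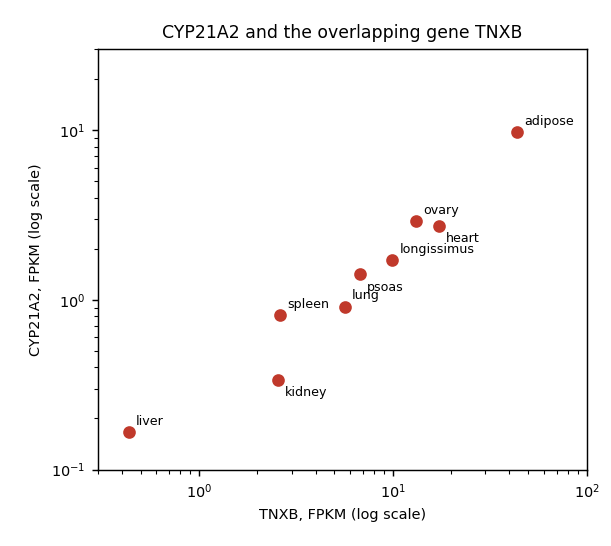
Level of CYP21A2 against that of TNXB, whose gene model overlaps it on the opposite strand, in 9 tissues (1 point per library, both axes in FPKM on log scales). Both genes are highest in adipose tissue (9.74 and 43.6) and lowest in liver (0.166 and 0.433).

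Of the 31 genes, 9 (29.0%) had a model that overlapped another model, against 37.6% of all genes. They formed 11 pairs, all on opposite strands. CYP39A1 shares 185 bp with SLC25A27, a mitochondrial carrier gene, and the levels of the 2 ran in a similar order (rho 0.950 over the 9 tissues). For the other 8 pairs in which both models had a level, rho lay between -0.38 and 0.87, and the last partner was listed at 0 throughout. The whole CYP27A1 model lies within that of CFAP65, which was at 4.88 in lung and at most 0.218 elsewhere. CYP27A1 also shares 11072 bp with PRKAG3 (rho -0.083). PRKAG3 was at 17.4 in longissimus dorsi, 7.53 in heart and 5.96 in psoas major, and at most 2.11 elsewhere. The part of PRKAG3 fragments in the CYP27A1 values was not tested. CYP4B1 shares 140 bp with the unnamed model over CYP4A21 and CYP4A24.

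Among the vitamin D genes, CYP27B1 and CYP24A1 were enriched in kidney, while CYP2R1 was not enriched in any class. CYP27B1, which makes the active hormone, was at 18.8 in kidney, 1.75 in lung, 0.404 in adipose tissue, 0.336 in spleen, 0.302 in ovary, 0.195 in longissimus dorsi, 0.144 in psoas major, 0.117 in heart and 0.0645 in liver. CYP24A1, which inactivates it, was at 29.2 in kidney and at most 0.0761 elsewhere, and was listed at 0 in 5 tissues. Both enzymes were thus present together in the same library. The vitamin D receptor gene VDR was also enriched in kidney, at 18.7 against 1.40 in lung. CYP2R1, a hydroxylase of vitamin D, was at 1.49 in kidney and in lung, 1.2 in adipose tissue, and 1.02 in liver and in spleen. It was at 0.921 in ovary, 0.302 in psoas major, 0.288 in heart and 0.265 in longissimus dorsi. After median-of-ratios scaling of the libraries CYP2R1 was highest in liver, at 1.61 against 1.08 in kidney.

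The retinoic acid hydroxylases, which break down the hormone, divided by tissue. CYP26A1 was at 1.71 in liver, 0.601 in ovary, 0.106 in lung and 0.0626 in adipose tissue, and was listed at 0 in the other 5. CYP26B1 was at 4.56 in lung, 3.46 in adipose tissue, 1.42 in ovary, 1.11 in kidney, 0.811 in heart, 0.340 in psoas major, 0.222 in longissimus dorsi, 0.173 in liver and 0.133 in spleen. CYP26C1 was listed at 0 in 8 tissues. Of the 9 retinoid partner genes, 3 were highest in ovary, among them ALDH1A2 (30.7), an enzyme that makes retinoic acid, and 2 in liver, among them the plasma carrier gene RBP4 (1568).

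Liver and kidney, known for the broadest P450 activity, were compared directly. Of 20 members at 1 FPKM or more in either organ, 9 (45.0%) were at least 4-fold higher in liver on the FPKM + 1 scale, against 3.83% of all genes. In the other direction, 3 (15.0%) were at least 4-fold higher in kidney, against 11.0% of all genes. The median log2 difference, liver minus kidney, was 1.64 for the 20 members and -0.87 for all 12476 genes compared, a gap of 2.51. CYP2E1 differed most towards liver (9.99), followed by CYP1A2 (6.20) and CYP1A1 (5.24). CYP24A1 (-4.92), CYP27B1 (-4.21) and CYP1B1 (-2.33) were the 3 towards kidney. After median-of-ratios scaling, which moved liver up by 1.12 against kidney on the log2 scale, the counts were 12 and 2, so that the liver share of the calls went from 75.0% to 85.7%. Over all genes the same scaling took the liver share from 25.8% to 57.3%.

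The electron donors were found in every tissue. POR was at 71.1 in liver, 43.7 in adipose tissue, 41.7 in ovary, 36.3 in lung, 27.1 in kidney, 22.2 in spleen, 20.2 in heart, 12.8 in psoas major and 6.84 in longissimus dorsi. Of 7 matched redox partners 3 were highest in liver, none was enriched in a class and none differed 4-fold between liver and kidney. CYB5A, the cytochrome b5 that supports many P450 reactions, was at 327 in liver and 272 in kidney. FDX1, the mitochondrial donor, was at 20.0 in kidney and 19.8 in liver. Of 8 haem synthesis genes, 3 were highest in liver, among them ALAS1, the first and rate-limiting enzyme, at 47.4 against 24.2 in heart and 10.7 in kidney.

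The regulators of the family were spread over several tissues. Of 19 listed, 2 were under 1 FPKM in each tissue, among them CEBPA, which was listed at 0 in every library. Of 17 detected regulators, 8 were highest in liver, 3 in lung, 3 in kidney, 2 in adipose tissue and 1 in ovary. The xenobiotic receptor genes NR1I2 and NR1I3 were at 16.6 and 15.0 in liver and at 12.2 and 2.33 in kidney. HNF4A, a hepatocyte nuclear factor, was higher in kidney (94.3) than in liver (50.0). AHR, the receptor that induces the CYP1 genes, was highest in lung at 14.8 against 4.09 in liver. Among regulators known to act on CYP7A1, the repressor gene NR0B2 was at 13.5 in liver and listed at 0 in lung. The activator genes HNF4A and NR5A2 were also lower in lung (0.133 and 0.386) than in liver (50.0 and 2.26). In contrast NR1H3, a further listed regulator, was higher in lung (93.3) than in liver (63.0). TBXAS1 and PTGIS, P450 genes of prostanoid synthesis that do not carry a CYP symbol, were highest in lung (15.6) and adipose tissue (10.5).

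Among the 31 members' sums that of adipose tissue was second to liver, and liver transcripts were measured in the same library. All 12 hepatocyte markers had a level in adipose tissue, and 11 of them stood at 0.226% to 0.469% of their liver level, with APOA1 at 4.10%. CYP2E1 (0.307%), CYP2D6 (0.359%) and CYP1A2 (0.414%) stood within that range and CYP4F3 (0.214%) just under it. CYP2C42 (1.17%) and CYP26A1 (3.66%) stood above that range but under APOA1. By contrast 6 of the 12 members that were highest in liver stood above every marker. They were CYP27A1 at 51.2%, CYP39A1 at 46.6%, CYP51A1 at 20.8%, CYP2A19 at 17.2%, CYP7B1 at 7.47% and CYP1A1 at 6.79%. This was not particular to adipose tissue: in the other tissues the count above every marker ran from 4 in heart to 7 in lung and in kidney. CYP4B1 and CYP4V2 were higher in adipose tissue than in liver. In longissimus dorsi the 12 markers stood at 0.0363% to 0.533% of liver, and CYP2E1 (0.0479%) and CYP2D6 (0.0496%) were in that range. The part of the marker transcripts in these low values was not tested.

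**Figure D4:**
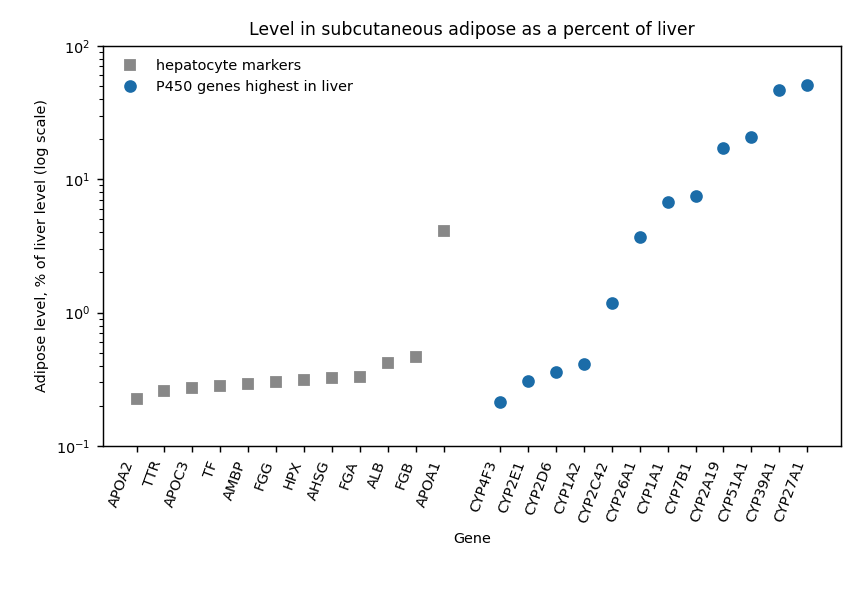
Level in subcutaneous adipose tissue as a percent of the liver level (log scale) for 12 hepatocyte markers (grey squares) and the 12 P450 genes that were highest in liver (blue circles). CYP2E1, CYP2D6 and CYP1A2 lie among the markers, and CYP27A1 lies highest at 51.2%.

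Several of the largest P450 loci carried no symbol in the table. A set of 9 unnamed gene models covered at least 0.5 of a RefSeq P450 gene, and these models spanned 16 such genes between them, most with further unnamed loci, so that a value cannot be assigned to 1 gene. The paralogs in these clusters are similar in sequence, and how fragments shared by paralogs were counted is unknown here, so their values are uncertain. The 9 models summed to 2642 FPKM in liver and 840.5 in kidney, 1.03 and 3.18 times the sum of the 31 members. The model over CYP3A22, CYP3A46 and CYP3A29 on chromosome 3 (6615343 to 6892457), the locus of the main drug-oxidising subfamily, was at 1492 in liver, 31.5 in adipose tissue and 4.60 in kidney. The model over CYP2C33 was at 855 in liver and 630.4 in kidney, and that over CYP4A21 and CYP4A24 at 190 and 84.6. The model over CYP4F55 was at 80.9 in kidney, 32.3 in liver and 26.3 in psoas major. Within the CYP2C cluster on chromosome 14, the model over CYP2C32 and CYP2C49 was at 49.2 in liver and 0.540 in kidney, while the overlapping model over CYP2C32, CYP2C34 and CYP2C36 was at 12.5 and 36.7. The model over CYP2B22 was highest in adipose tissue (69.2) and lung (43.5), with 4.81 in liver.

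The pool gave a further library in which to read the members. Although its label names ovary, the 4 oocyte markers summed to 0.296 FPKM there against 329 in ovary. The 6 granulosa and theca markers summed to 0.600 against 169. The part of ovary in the pool was not tested. The 6 members enriched in liver stood at 46.3% to 58.3% of their liver level in the pool, beside 38.2% to 52.4% for the 12 hepatocyte markers. CYP24A1 and CYP27B1 stood at 5.75% and 5.53% of their kidney level, beside 2.92% to 6.68% for the 7 kidney tubule markers. CYP1B1 and CYP2S1, the pair highest in spleen, were examined after their values had been seen. The pool held CYP1B1 at 0.458, which is 2.13% of the spleen level, against 11.8% to 16.7% for the 3 B cell markers and 23.9% for CYP2S1. Of 21 members at 1 FPKM or more in the pool, 3 were above each of the 9 tissues, which is 14.3% against 2.56% of all genes. CYP7B1 exceeded its highest tissue only slightly (5.93 against 5.88) and CYP2U1 somewhat more (6.04 against 4.34), whereas CYP46A1 stood at 5.45 against 0.302.

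**Figure D5:**
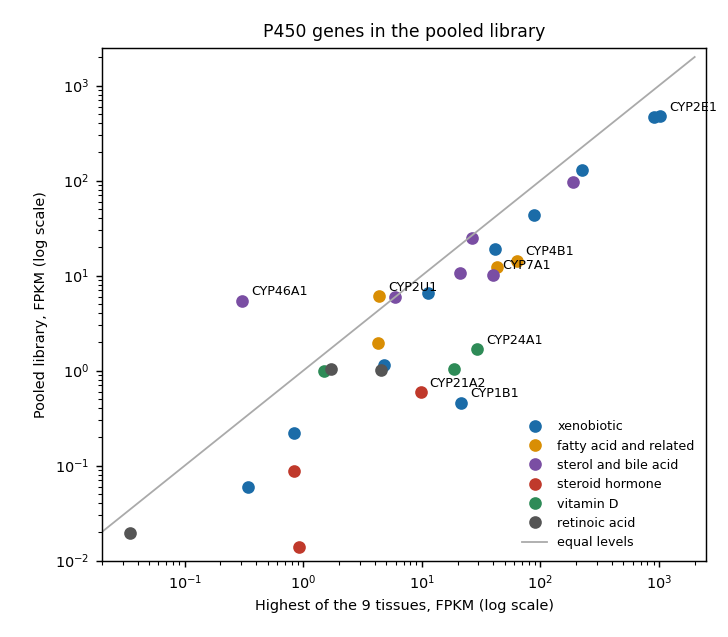
Level of each P450 gene in the pooled library against the highest of its 9 single-tissue levels (FPKM, log scales), coloured by role. The line marks equal levels, and 2 genes listed at 0 in the pool are not drawn. CYP46A1 lies far above the line, at 5.45 against 0.302, and CYP1B1 far below it, at 0.458 against 21.6.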

How the data were processed

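The deposited table gives 1 value per gene and library, and the authors' values were read as FPKM, a unit the header does not name. That reading rests on fractional values, on library totals (292495 to 369254) that differ, and on a transcript assembler being used. Tools in the submitters' processing notes are StringTie 1.2.2 and TopHat2 2.1.0, with Sscrofa11.1 as genome build. Annotation release, strandedness and filters: not given in the sources used here.

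All 10 columns were used, each matched to its sample by the code in the labels, and each library was its own group. An identifier table gave 14857 genes a symbol, and another 1714 took theirs from the mutual best RefSeq gene overlapping by at least 0.5 of the longer gene. Of 12553 genes named both ways, 95.1% had equal names. Members were genes whose symbol had the form CYP, number, letter, number. Members, roles and gene lists were chosen with earlier results of these data known.

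Detection was set at 1 FPKM. Enrichment required FPKM + 1 at 5-fold or more over each of 7 other classes, and liver and kidney were compared at a difference of 2 on the log2(FPKM + 1) scale. Members were named in full where they were enriched, were among the 3 highest of a tissue, or carry out a named step of sterol, steroid, vitamin D or retinoic acid metabolism. No test was run, since each tissue had 1 library. Depth was read from steps in the values of genes spanning 400 to 1500 bp, in a range of 0.05 to 0.1 for FPKM multiplied by the span in kb, chosen after the values were seen. Alternatives varied the pseudocount (0.1 and 5), the fold (3 and 10), the detection level (0.5 and 5), the filter, the scaling, the muscle classes and the naming. The call rules were tested on simulated data. Calculations used Python 3.11.15, numpy 2.4.6, pandas 2.3.3 and matplotlib 3.10.9.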

Additional observations from a re-analysis of the deposited data

Results flagged for a closer look

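CYP46A1, the cholesterol hydroxylase known from neurons, stood at 5.45 FPKM in the pool. It drew attention because it was under 1 FPKM in each of the 9 single tissues, where the highest value was 0.302 in ovary.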

How the results depend on the processing

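Of 53 alternative values of the 9 counts, 47 were within 1.5 times the count as reported and 6 were not. With 5 added to the FPKM in place of 1, 3 of the 9 enriched members were lost (CYP7A1, CYP27B1 and CYP2C42), and median-of-ratios scaling exchanged CYP7A1 for CYP4F3. A fold of 10 lowered the enriched members from 9 to 4, and those in liver from 6 to 3. A detection level of 0.5 raised the members detected in every tissue from 3 to 5, and a level of 5 lowered them to 0. After the data were seen, members whose gene model overlaps another were left out, which took those highest in liver from 12 of 23 to 7 of 16, and the 9 unnamed models were added, which took those highest in kidney from 3 of 23 to 5 of 32. The highest class was kept in 66 of 69 checks on the 23 detected members. Median-of-ratios scaling changed it for 3 members, with log2 gaps to the next class of -0.060 for CYP26B1, -0.35 for CYP2U1 and -0.33 for CYP2R1. No paired analysis was possible because each tissue had 1 library. Leaving out a library would remove its tissue, so that was not run. Depth limits the lowest values, which in short genes such as CYP8B1 lie 1 or 2 steps above 0.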
